A study of Homo sapiens with 12 samples.

Results

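The proteasome genes described here are the 48 genes, among 59251 in the count table, whose symbol is PSM followed by a letter from A to G and a number. They encode the subunits of the 26S proteasome, its activators, its inhibitor and the chaperones that assemble it. RNA-Seq was performed on 1 cell line in bulk culture, HL60, which derives from a human acute myeloid leukemia. The cells were non-treated, treated with 1 µM all-trans retinoic acid (ATRA), treated with 1 µM of palbociclib, an inhibitor of the cell cycle kinases CDK4 and CDK6 (CDK4/6i), or treated with both drugs at these doses (CDK4/6i+ATRA). All cells were collected at 48 h, and each of the 4 groups had 3 libraries that the labels call biological replicates, 12 in all.

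The proteasome degrades proteins that carry ubiquitin chains. Its 20S core is a barrel of alpha and beta rings, and the catalytic subunits PSMB6, PSMB7 and PSMB5 carry the caspase-like, trypsin-like and chymotrypsin-like activities. The 19S regulatory particle recognises, unfolds and feeds in the substrate. In cells exposed to interferon, and in many immune cells, PSMB9, PSMB10 and PSMB8 replace PSMB6, PSMB7 and PSMB5, in that order, and form the immunoproteasome, which together with the activator PSME1-PSME2 is known for making peptides for MHC class I. PSMG1 to PSMG4 are chaperones that guide the assembly of the alpha ring and are not part of the finished particle.

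Total counts ranged from 12230923 to 18679544 per library, so that 3 counts, taken as the limit below which a gene was not detectable, correspond to 0.156 to 0.275 CPM, the TMM-normalized unit used throughout. The proteasome genes together took 0.676% to 0.700% of the counts in non-treated cells, 0.651% to 0.660% after ATRA, 0.642% to 0.651% after CDK4/6i and 0.495% to 0.504% after both drugs. The TMM factors were 0.840 to 0.893 in the CDK4/6i+ATRA libraries and 1.03 to 1.07 in the others. With library size alone in place of TMM, the median log2 difference of all genes tested between CDK4/6i+ATRA and non-treated cells moved from 0.02 to -0.25. Of the myeloid markers, MPO stood at 6335 to 6666 CPM in non-treated cells, 3414 to 3543 CPM with CDK4/6i, 268 to 322 CPM with ATRA and 24.5 to 33.9 CPM with CDK4/6i+ATRA. SPI1 went the other way, from 298 to 304 CPM in non-treated cells to 456 to 477 CPM with ATRA and 838 to 868 CPM with CDK4/6i+ATRA. So did CEBPE, from 165 to 175 CPM to 399 to 424 CPM and 281 to 289 CPM. Of the 6 myeloid markers tested, 4 (MPO, CEBPA, CTSG and CD33) were lower with ATRA and 2 higher (35.5% and 32.1% of all genes). ELANE, PRTN3 and AZU1 were listed at 0 in all libraries. The 9 markers of other cell types, of which CD3E and CD79A were tested, had a summed level of 13.3 to 27.1 CPM over all libraries. The proliferation markers MKI67, CCNA2 and TOP2A had a summed level of 1676 to 1717 CPM in non-treated cells, 2359 to 2429 CPM after ATRA, 89.2 to 100.5 CPM after CDK4/6i and 26.4 to 27.8 CPM after both drugs. The summed level of the differentiation markers ITGAM, CD38, CYP26A1, DHRS3 and TGM2 was 8.83 to 10.02 CPM in non-treated cells and 23.0 to 25.6 CPM with CDK4/6i. It was 2731 to 2993 CPM with ATRA and 3049 to 3106 CPM with CDK4/6i+ATRA. The part of these differences in the results was not tested.

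Of the 48 genes, 44 had a count in some library and 43 passed the filter on low counts. PSMA8, known from testis, and PSMB11, known from the thymus, had no count. PSMB3 and PSMD5, which belong to every cell's proteasome and its assembly, were also listed at 0 in all 12 libraries. PSMB9, the inducible partner of PSMB6, was listed at 0 to 3 counts, with 0, 3 and 2 counts in the ATRA libraries, 0, 0 and 1 in the CDK4/6i+ATRA libraries and 0 in the other 6. PSMB3, PSMB8, PSMB9, PSMC4, PSME1 and PSME2 have a second listing in hg38, on alternate or patch contigs. Among protein-coding genes listed this way, 42.6% of 1586 had no count, against 23.1% of 17988 listed on 1 chromosome only. PSMC4, PSME1 and PSME2, each listed on 1 other contig, as is PSMB3, were counted in every library. PSMB8 and PSMB9 are each listed on 7 other contigs, and PSMD5, at 0, has no second listing. The zeros of PSMB3 and PSMD5 and the counts of PSMB9 cannot be read as levels, the level of PSMB8 is uncertain, and no fold was computed for PSMB9.

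More of the tested proteasome genes were called lower than higher in each treatment, and most differences were under 1.5-fold. The test was edgeR's quasi-likelihood F test across 13318 genes, called at an adjusted p under 0.05. With ATRA, 22 of the 43 were lower than in non-treated cells, where 35.5% of all genes tested were called lower, and 6 were higher, where 32.1% were called higher and 67.6% were called in either direction. With CDK4/6i, 19 were lower (27.9% of all genes) and 5 higher (28.3% of all genes, with 56.2% called in either direction). With CDK4/6i+ATRA, 30 were lower (40.7% of all genes) and 7 higher (41.0% of all genes, with 81.7% called in either direction). The median log2 fold change of the 43 was -0.11, -0.08 and -0.23 in that order, beside -0.03, 0.02 and 0.02 for all genes tested. With library size alone the median against non-treated cells with CDK4/6i+ATRA was -0.49. Its difference from the median of all genes was -0.24 with either scaling. A change of scaling moves all genes by nearly the same amount, so this likeness is no check on the scaling. Changes of at least 1.5-fold were made by 5 genes with ATRA, by 1 gene with CDK4/6i and by 9 genes with CDK4/6i+ATRA, where 36.8%, 21.5% and 62.7% of all genes tested did so. In bulk RNA, fewer cells with a high level and a lower level per cell cannot be told apart.

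**Figure D1:**
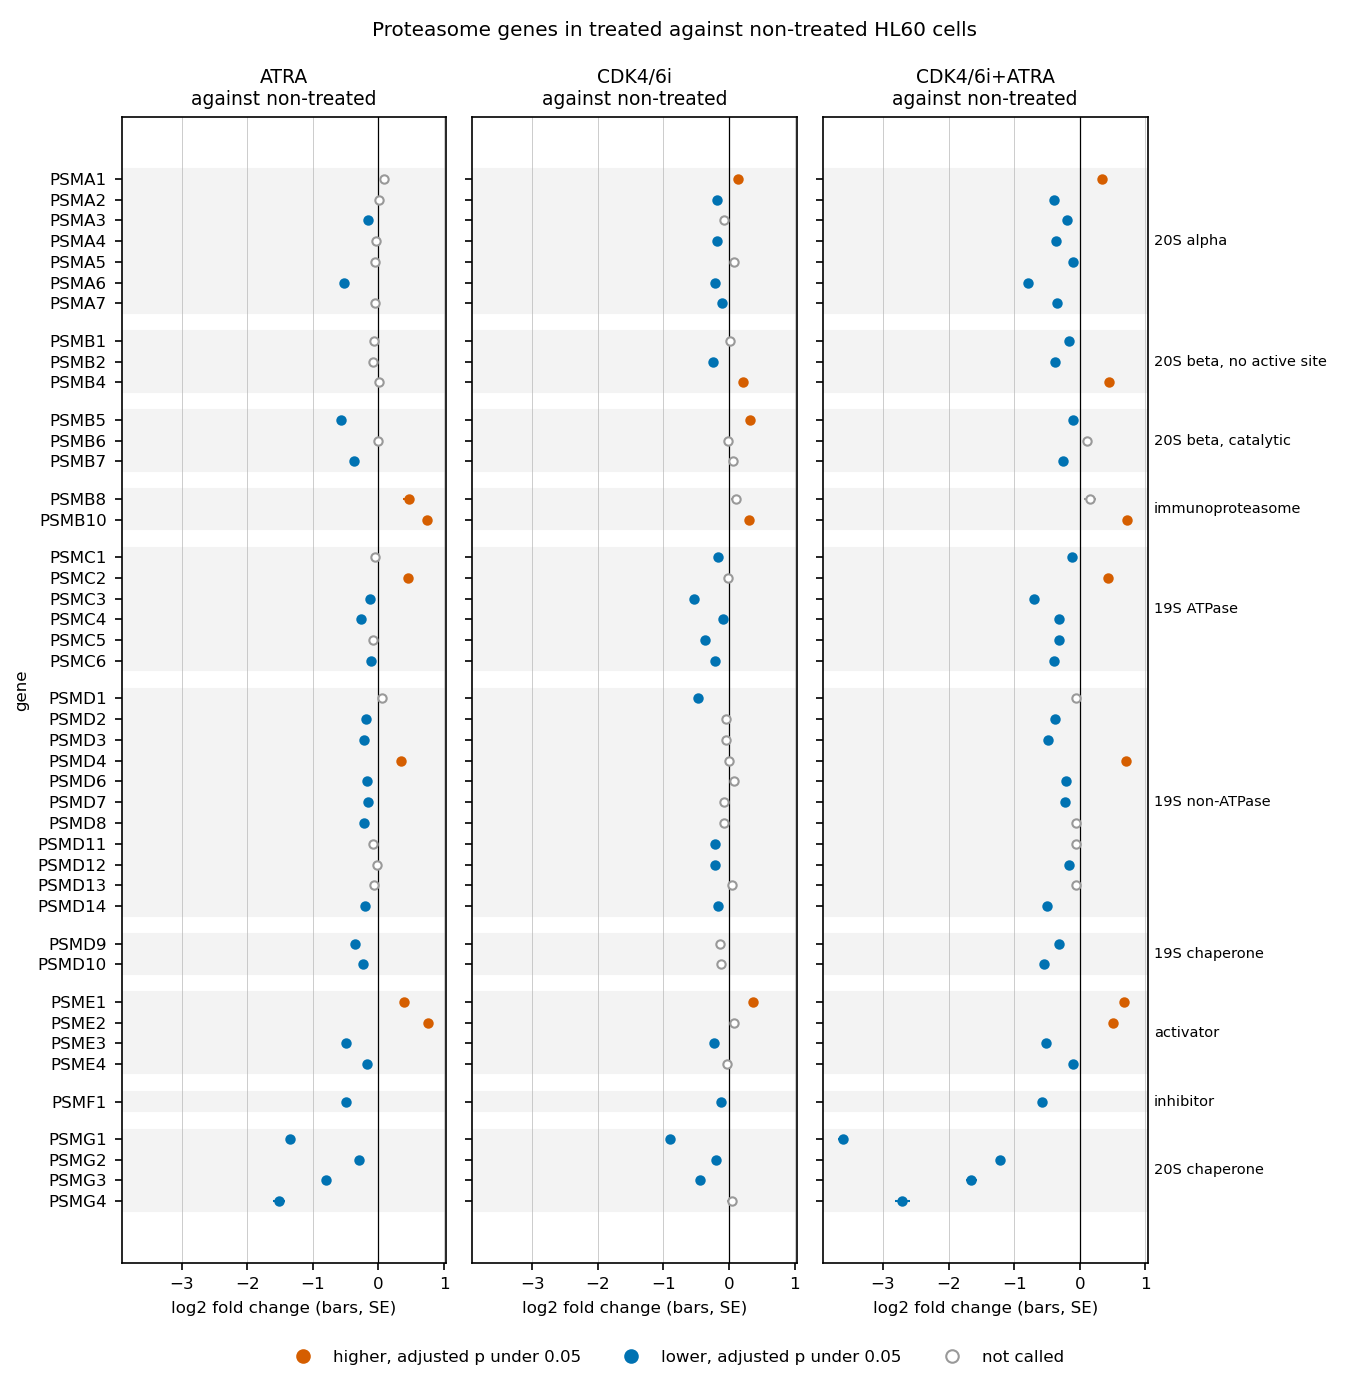
Log2 fold change of the 43 tested proteasome genes (rows, grouped by role) in the 3 comparisons with non-treated cells, with bars for the standard error and filled points for an adjusted p under 0.05. Most points lie within 0.5 of 0, and PSMG1 to PSMG4 at the bottom reach -3.61. The filled points above 0 with CDK4/6i+ATRA are PSMA1, PSMB4, PSMB10, PSMC2, PSMD4, PSME1 and PSME2.

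The 3 comparisons use the same non-treated libraries. In all 3, PSMA6, PSMC3, PSMC4, PSMC6, PSMD14, PSME3, PSMF1, PSMG1, PSMG2 and PSMG3 were lower (10 genes) and PSMB10 and PSME1 were higher (2 genes), where 15.1% of all genes tested were lower and 13.5% higher in all 3. Another 10 genes, among them PSMB7, PSMD2, PSMD3 and PSMG4, were lower with ATRA and with CDK4/6i+ATRA and were not called with CDK4/6i (9.83% of all genes). PSMC2, PSMD4 and PSME2 were higher in the same 2 groups and not called with CDK4/6i (10.8% of all genes). PSMB5 was lower with ATRA and higher with CDK4/6i (7.61% of all genes). PSMB6 and PSMD13 passed the test in none of the 3 (9.36% of all genes).

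The largest changes with CDK4/6i+ATRA were those of the 20S assembly chaperones, all 4 of which fell with ATRA (35.5% of all genes) and with CDK4/6i+ATRA (40.7% of all genes). Their summed level was 297 to 313 CPM in non-treated cells, 223 to 229.5 CPM with CDK4/6i, 171 to 182 CPM with ATRA and 78.8 to 83.2 CPM with CDK4/6i+ATRA, with no overlap between groups. PSMG1 and PSMG2 form one heterodimer of chaperones and PSMG3 and PSMG4 another, and both act on the alpha ring.

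PSMG1 (chr21:39174769-39183514, hg38, minus strand, 7 exons) stood at 109.6, 116 and 107 CPM in the non-treated libraries and at 58.5, 59.2 and 60.5 CPM with CDK4/6i. It stood at 40.7, 47.7 and 42.1 CPM with ATRA and at 10.999, 8.56 and 7.77 CPM with CDK4/6i+ATRA. Each treated group lay below the non-treated libraries, and CDK4/6i+ATRA lay below all others. The means were 111 ± 4.40 CPM without treatment and 9.11 ± 1.68 CPM with both drugs (SD, n = 3), a 12.2-fold difference. The log2 fold change was -1.35 after ATRA (SE 0.0562, adjusted p = 1.13e-26), -0.90 after CDK4/6i (SE 0.0539, adjusted p = 5.24e-20) and -3.61 after both (SE 0.0797, adjusted p = 5.89e-39).

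PSMG2 (chr18:12658738-12725740, plus strand, 8 exons) was 126, 128 and 122 CPM in non-treated cells, 109, 101 and 96.3 CPM after ATRA, 108, 107 and 114 CPM after CDK4/6i and 49.6, 54.2 and 58.3 CPM after both drugs. ATRA and CDK4/6i overlapped each other, both lay below non-treated cells, and CDK4/6i+ATRA lay lowest. It fell by 1.21 on the log2 scale with both drugs (SE 0.0524, adjusted p = 1.74e-26), the smallest change of the 4 chaperones in that comparison.

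PSMG3 (chr7:1567332-1570032, minus strand, 2 exons) was 40.8, 43.9 and 40.7 CPM in non-treated cells and 30.2, 33.6 and 28.6 CPM with CDK4/6i. It was 24.0, 25.2 and 22.9 CPM with ATRA and 14.8, 12.4 and 12.7 CPM with CDK4/6i+ATRA. The groups descended in that order without overlap, and the log2 fold change with both drugs was -1.65 (SE 0.0850, adjusted p = 2.19e-23).

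PSMG4 (chr6:3254404-3268049, plus strand, 3 exons) was 25.1, 25.2 and 26.9 CPM in non-treated cells and 26.3, 26.6 and 26.9 CPM with CDK4/6i, which overlapped. It was 8.57, 8.57 and 9.83 CPM with ATRA and 3.67, 3.65 and 4.46 CPM with CDK4/6i+ATRA, and neither of these groups overlapped another. The change with CDK4/6i was 0.05 on the log2 scale (95% interval -0.11 to 0.20, adjusted p = 0.627), while that with ATRA was -1.51 (SE 0.0909, adjusted p = 2.46e-20). With both drugs it was -2.70 (SE 0.118, adjusted p = 2.39e-26).

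The fall of the chaperones with ATRA was larger when CDK4/6i was present. The interaction, which is the log2 fold change with both drugs less those with each drug alone, was -1.36 for PSMG1 (SE 0.109, adjusted p = 3.28e-15) and -1.24 for PSMG4 (SE 0.160, adjusted p = 4.81e-09). It was -0.72 for PSMG2 (adjusted p = 2.12e-12) and -0.42 for PSMG3 (adjusted p = 0.00197), where 27.0% of all genes were called negative. All 4 were also lower with both drugs than with ATRA (32.8% of all genes), by 2.26, 0.91, 0.86 and 1.19 on the log2 scale for PSMG1 to PSMG4 in that order. Under library size alone the 4 interactions were -1.68, -1.04, -0.74 and -1.56, beside a median over all genes of -0.34.

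**Figure D2:**
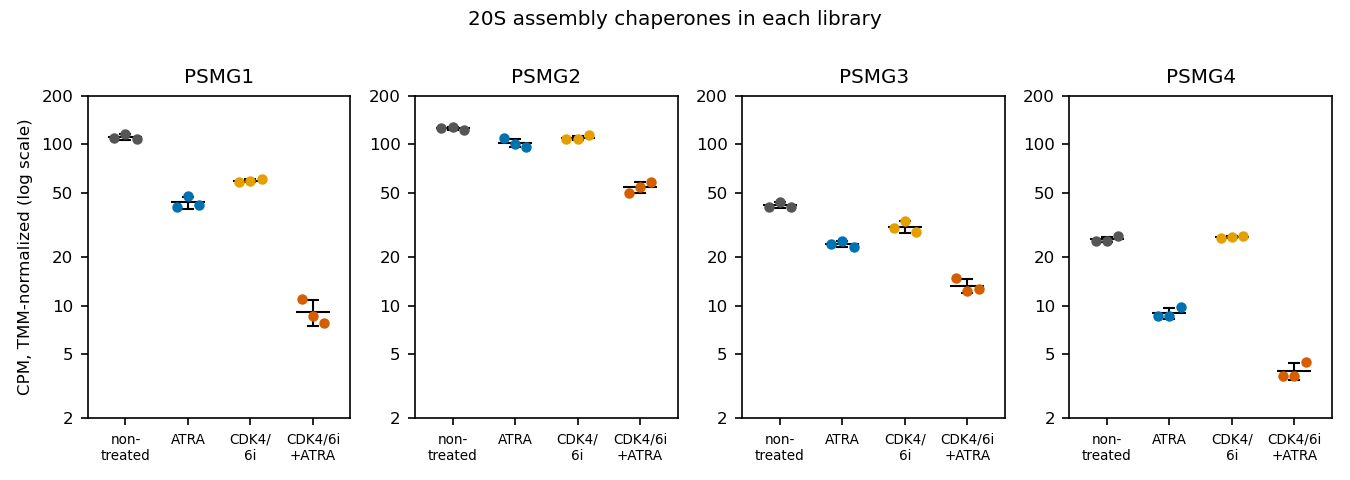
TMM-normalized CPM on a log scale of PSMG1 to PSMG4 in each library (points) of the 4 groups, with the mean and SD over 3 libraries (black). In every panel the CDK4/6i+ATRA libraries lie lowest, and in the PSMG4 panel the CDK4/6i libraries lie level with the non-treated ones, at 26.3 to 26.9 CPM.

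Among the catalytic subunits, the inducible PSMB10 and PSMB8 rose with ATRA while the constitutive PSMB5 and PSMB7 fell. PSMB10 (chr16:67934506-67936850, minus strand, 8 exons) takes the place of PSMB7. It was 65.3, 58.6 and 59.1 CPM in non-treated cells, 78.0, 73.7 and 74.5 CPM with CDK4/6i, 102, 101 and 102 CPM with ATRA and 94.4, 93.2 and 112 CPM with CDK4/6i+ATRA. CDK4/6i lay between non-treated cells and the 2 groups with ATRA, which overlapped each other. The log2 fold change was 0.74 after ATRA (SE 0.0526, adjusted p = 1.40e-17), 0.31 after CDK4/6i (SE 0.0540, adjusted p = 2.93e-06) and 0.71 after both (SE 0.0550, adjusted p = 1.21e-16). The last of these was 0.45 with library size alone.

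PSMB8 (chr6:32840717-32844679, minus strand, 7 exons), which takes the place of PSMB5, is also listed on 7 other contigs and had 232 to 484 counts per library. It was 19.5, 20.004 and 19.993 CPM in non-treated cells, 29.8, 27.3 and 24.8 CPM after ATRA, 22.9, 21.1 and 19.9 CPM after CDK4/6i and 21.3, 22.8 and 22.1 CPM after both drugs. The ATRA libraries lay above all others. PSMB8 rose with ATRA by 0.46 on the log2 scale (SE 0.0790, adjusted p = 1.28e-06). With both drugs the log2 fold change was 0.16 (95% interval -0.02 to 0.33, adjusted p = 0.0938), or -0.11 with library size alone, and it was below that with ATRA alone by 0.30 (adjusted p = 0.00111). The change with CDK4/6i was 0.11 (95% interval -0.06 to 0.27).

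PSMB5 (chr14:23025851-23035220) was 86.8, 87.6 and 84.5 CPM in non-treated cells, 56.1, 58.4 and 59.4 CPM after ATRA, 109.8, 106 and 105 CPM after CDK4/6i and 79.6, 80.2 and 81.3 CPM after both drugs. No group overlapped another. It fell with ATRA by 0.57 on the log2 scale (SE 0.0460, adjusted p = 1.11e-15) and rose with CDK4/6i by 0.31 (SE 0.0430, adjusted p = 1.72e-08). The value with both drugs, -0.10 (adjusted p = 0.0411), missed the threshold with DESeq2's size factors (adjusted p = 0.0957), with at least 10 counts in every library, with DESeq2's test, with a replicate block, with only the groups compared, and without non-treated library 1 or 2 or any 1 of the CDK4/6i+ATRA libraries (adjusted p = 0.0502 to 0.0874).

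PSMB7 (chr9:124353465-124415442) overlaps LOC100129034 on the opposite strand over 389 of its 984 exonic bases, and whether reads were counted by strand is not stated. It was 96.8, 103 and 94.95 CPM in non-treated cells, 74.6, 76.8 and 75.5 CPM after ATRA, 102, 104 and 102 CPM after CDK4/6i and 83.5, 83.9 and 80.2 CPM after both drugs. It fell by 0.38 with ATRA (SE 0.0446, adjusted p = 1.68e-10) and by 0.25 with both drugs (SE 0.0464, adjusted p = 2.88e-06) on the log2 scale. Both groups with ATRA lay below the groups without it.

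PSMB6, the third constitutive catalytic subunit, was 62.6, 58.4 and 61.3 CPM in non-treated cells, 60.4, 58.2 and 62.2 CPM after ATRA, 65.0, 54.999 and 59.7 CPM after CDK4/6i and 64.6, 67.7 and 65.3 CPM after both drugs. It did not pass the test against non-treated cells in any group. With both drugs its log2 difference was 0.12 (95% interval 0.00 to 0.23, adjusted p = 0.0565), which passed with DESeq2's size factors (0.13), with at least 10 counts in every library (0.15), with only the groups compared (0.12) and without CDK4/6i library 1 (0.11), and turned to -0.15 with library size alone.

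**Figure D3:**
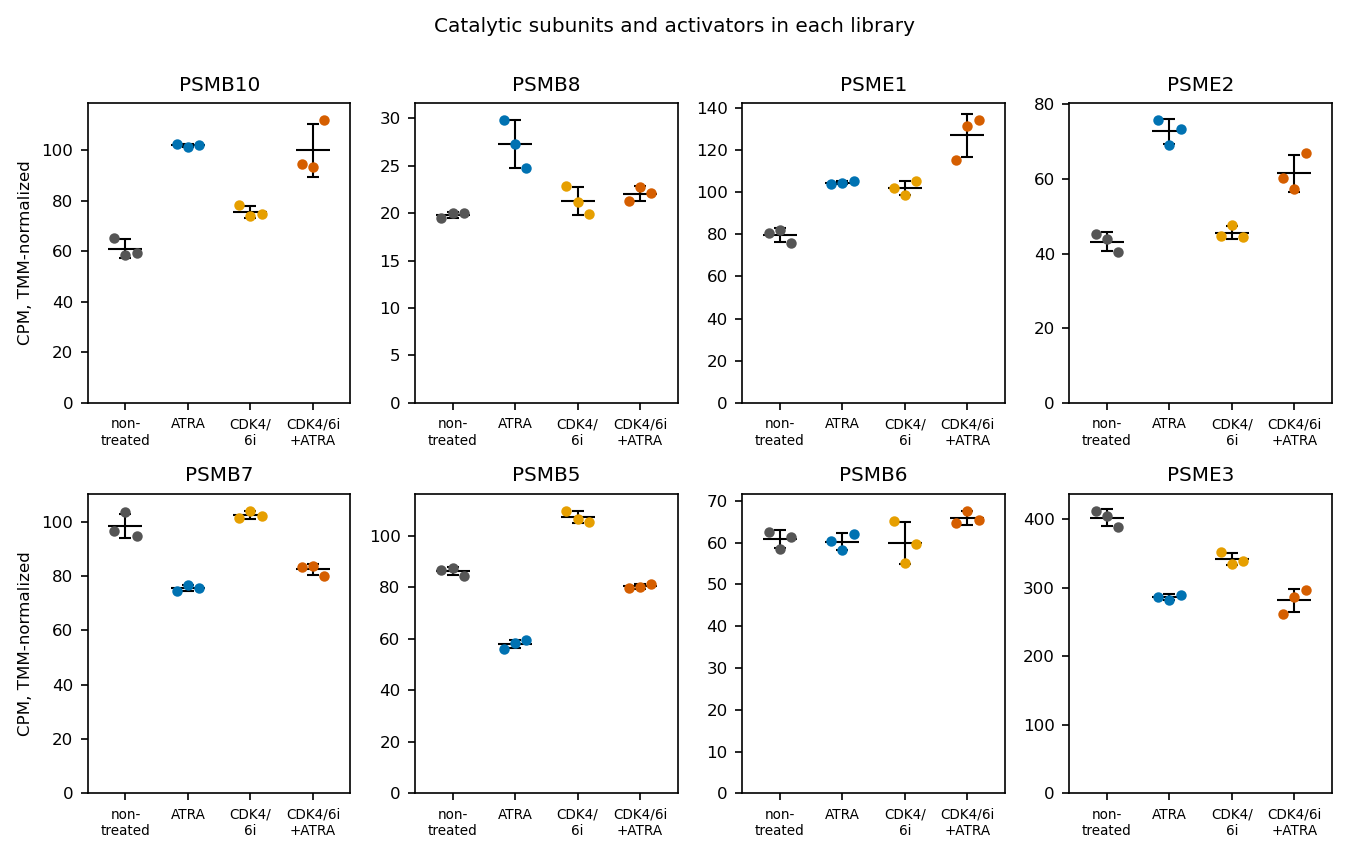
TMM-normalized CPM in each library (points) of inducible subunits and activators (top row) and of constitutive catalytic subunits and PSME3 (bottom row) in the 4 groups, with the mean and SD over 3 libraries (black) and axes that start at 0. PSMB10 and PSME2 are higher and PSMB7 and PSME3 lower in both groups with ATRA than in non-treated cells.

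PSMB10 and PSMB8 were each set against the subunit replaced, as the ratio of counts per base of exon within a library. No scaling between libraries changes this ratio. PSMB9, whose counts cannot be read as levels, was not set against PSMB6. PSMB10 stood at a mean log2 ratio to PSMB7 of -0.68 ± 0.13 in non-treated cells, -0.43 ± 0.06 with CDK4/6i, 0.28 ± 0.18 with CDK4/6i+ATRA and 0.44 ± 0.03 with ATRA (SD, n = 3). Both groups with ATRA lay above both groups without it. Over the libraries, the log2 ratio ran from -0.81 to -0.56 in non-treated cells, from -0.49 to -0.37 with CDK4/6i, from 0.16 to 0.49 with CDK4/6i+ATRA and from 0.41 to 0.47 with ATRA.

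The log2 ratio of PSMB8 to PSMB5 was -2.42 ± 0.04 in non-treated cells, -2.63 ± 0.07 with CDK4/6i, -2.16 ± 0.05 with CDK4/6i+ATRA and -1.38 ± 0.17 with ATRA (SD, n = 3), and no group overlapped another. The ratio was thus lower with CDK4/6i and higher in both groups with ATRA than in non-treated cells. The absolute values carry the uncertain levels of PSMB8 and, in the other ratio, of PSMB7. These ratios are descriptions without a test.

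**Figure D4:**
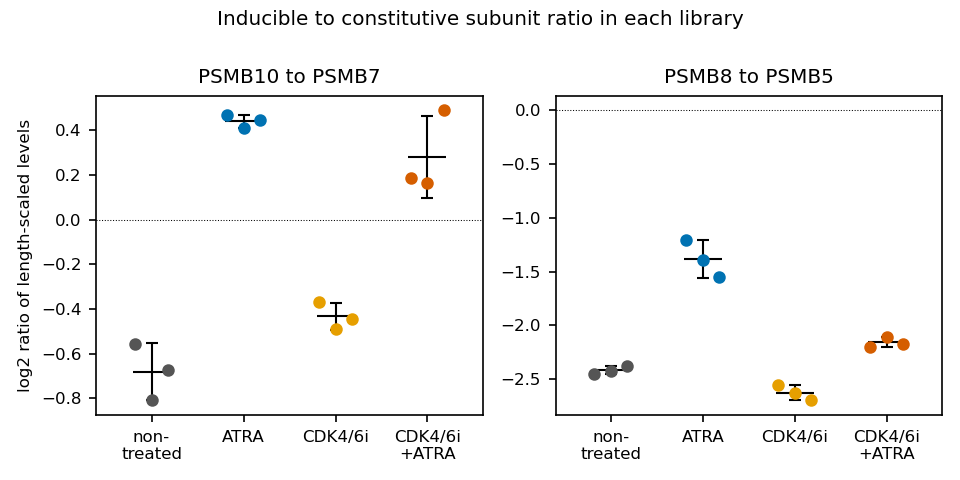
Log2 ratio of the length-scaled levels of PSMB10 to PSMB7 (left) and of PSMB8 to PSMB5 (right) in each library (points) of the 4 groups, with the mean and SD over 3 libraries (black); the dotted line marks equal levels. The ATRA libraries lie highest on the right, at -1.55 to -1.21, and both groups with ATRA lie above both groups without it on the left.

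PSMB8, PSMB10, PSME1 and PSME2, which rose with ATRA, share a letter pattern near their starts. PSMC2, which also rose, and PSMB9 have windows without it, and PSMD4 has no window. RefSeq promoter windows, 250 bases before to 50 after each start (GRCh38.p14), were held for 42 of the 48 genes, in 51 windows. They were searched on both strands for GAAA and GAAA with any 2 bases between them, the kind of site that interferon regulatory factors bind. The pattern was found in 7 of the 42 genes, in 13.7% of their 51 windows and in 3.57% of all 35116 windows. In 5 of the 7, PSMB8, PSMB10, PSME1, PSME2 and PSMG4, the match was the same 10 letters, GAAAGCGAAA, on one strand or the other, which 9.80% of the 51 windows and 35 of the 35116 windows (0.0997%) hold. These letters were searched alone after the matches had been seen. The stretches are shown for all 7 genes with the match in capitals, 5′ to 3′ on the gene's strand, because PSMB8, PSMB10, PSME1 and PSME2 rose with ATRA while PSMG4, with the same 10 letters, fell.
PSMB8 (chr6:32844032-32844091, minus strand): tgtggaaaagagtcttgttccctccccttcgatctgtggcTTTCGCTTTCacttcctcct
PSMB10 (chr16:67936837-67936896, minus strand): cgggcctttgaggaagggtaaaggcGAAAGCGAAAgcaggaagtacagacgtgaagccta
PSME1 (chr14:24136150-24136209, plus strand): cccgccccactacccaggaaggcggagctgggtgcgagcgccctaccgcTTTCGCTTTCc
PSME2 (chr14:24146604-24146663, minus strand): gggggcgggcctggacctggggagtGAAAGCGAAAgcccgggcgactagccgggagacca
PSMG4 (chr6:3258889-3258948, plus strand): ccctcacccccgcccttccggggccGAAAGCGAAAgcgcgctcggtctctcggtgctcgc
PSMB4 (chr1:151399480-151399539, plus strand): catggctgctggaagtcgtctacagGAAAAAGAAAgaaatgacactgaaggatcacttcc
PSMA4 (chr15:78540155-78540214, plus strand): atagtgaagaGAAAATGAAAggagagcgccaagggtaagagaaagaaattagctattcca

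The match begins 21 bases before the start of PSMB10, 28 before that of PSME2, 33 before one start of PSMG4 and 4 before one start of PSMB8, both of which lie inside the extent of the gene given above, and at base 6 after the start of PSME1. It lies 68 bases before the start of PSMB4 and 240 bases before that of PSMA4. In PSMB8 and PSME1 the GAAA reading is on the strand opposite to the gene, so that TTTCGCTTTC is printed. Of the other patterns searched, TTCNNNGAA, of the type STAT factors bind, was found in 8 of the 42 genes (15.7% of their windows and 7.66% of all windows), TGACNNNGC, of the antioxidant type bound by NFE2L1 and NFE2L2, in 15 (29.4% of their windows and 13.3% of all) and CCAAT in 20 (39.2% of their windows and 34.6% of all). A match is a description of the letters and no evidence of binding.

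The activators split by type. PSME1 and PSME2, the subunits of one ring-shaped activator that interferon induces, rose with ATRA, while the nuclear activator PSME3 and the large single-chain activator PSME4 fell. PSME1 (chr14:24136194-24138962) was 80.7, 82.1 and 75.9 CPM in non-treated cells, 104, 104 and 106 CPM after ATRA, 102, 98.6 and 105 CPM after CDK4/6i and 115, 131 and 134 CPM after both drugs. All treated libraries lay above the non-treated ones, the single drugs overlapped each other, and CDK4/6i+ATRA lay highest. The log2 fold change was 0.40 after ATRA, 0.36 after CDK4/6i and 0.68 after both (SE 0.0486, adjusted p = 9.12e-18), and 0.41 with both drugs under library size alone. The interaction of -0.08 (95% interval -0.21 to 0.06) was not called, and was -0.40 and called under library size alone.

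PSME2 (chr14:24143365-24146610) was 45.2, 44.0 and 40.5 CPM in non-treated cells, 75.7, 69.1 and 73.3 CPM after ATRA, 44.8, 47.6 and 44.4 CPM after CDK4/6i and 60.1, 57.4 and 66.9 CPM after both drugs. CDK4/6i overlapped non-treated cells, CDK4/6i+ATRA lay above both and ATRA lay highest. It rose by 0.75 on the log2 scale with ATRA (SE 0.0568, adjusted p = 1.32e-16) and by 0.51 with both drugs (SE 0.0608, adjusted p = 1.41e-10). Its level with both drugs was lower than with ATRA by 0.24 (adjusted p = 0.000238). PSME1 and PSME2 are each also listed on 1 contig beside chromosome 14.

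PSME3 was 413, 405 and 389 CPM in non-treated cells, 352, 334 and 339.7 CPM with CDK4/6i, 287, 283 and 290.3 CPM with ATRA and 262, 286 and 296 CPM with CDK4/6i+ATRA. It fell by 0.49 after ATRA, 0.23 after CDK4/6i and 0.52 after both (SE 0.0394, adjusted p = 9.77e-17) on the log2 scale. The 2 groups with ATRA overlapped each other and lay below CDK4/6i, which lay below non-treated cells. PSME4 was 147 to 148 CPM in non-treated cells and 129 to 132 CPM with ATRA, a log2 change of -0.17 (adjusted p = 9.22e-05). With both drugs PSME4 was 132 to 141 CPM, a log2 change of -0.11 (adjusted p = 0.0137) that was not called with at least 10 counts in every library (-0.07), with DESeq2's test (-0.09) or without CDK4/6i+ATRA library 2 (-0.09).

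PSMF1, an inhibitor that binds the 20S core, was 209.9, 206 and 193 CPM in non-treated cells, 186, 181 and 188 CPM with CDK4/6i, 139, 144 and 148 CPM with ATRA and 126, 139.7 and 142 CPM with CDK4/6i+ATRA. It fell by 0.50 with ATRA (adjusted p = 2.54e-15) and by 0.57 with both drugs (adjusted p = 3.54e-17) on the log2 scale. The 2 groups with ATRA lay below the others. Its change of -0.13 with CDK4/6i (adjusted p = 0.00513) was not called without non-treated library 1 (-0.10, adjusted p = 0.0537).

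In the 20S alpha ring, whose subunits form the gate of the barrel, 2 of the 7 tested genes were lower with ATRA (35.5% of all genes), and 6 were lower and 1 higher with CDK4/6i+ATRA (40.7% and 41.0% of all genes). PSMA1 was not called with ATRA (0.08), but was called higher with DESeq2's size factors (0.11) and with library size alone (0.12). PSMA6 was 206, 199.9 and 183 CPM in non-treated cells, 132, 131 and 145 CPM after ATRA, 171, 176 and 162 CPM after CDK4/6i and 112, 111 and 117 CPM after both drugs. The groups did not overlap, with CDK4/6i next below non-treated cells, then ATRA, then both drugs, at a log2 change of -0.79 (SE 0.0460, adjusted p = 3.61e-21). PSMA1 moved the other way, from 147 to 162 CPM in non-treated cells to 194 to 199 CPM with CDK4/6i+ATRA, a log2 change of 0.34 (SE 0.0407, adjusted p = 1.82e-10). Under library size alone this was 0.07 (adjusted p = 0.0857), not called. The 5 other tested alpha genes had log2 changes of -0.40 to -0.11 with both drugs.

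Among the beta subunits without an active site, PSMB4 rose and PSMB1 and PSMB2 fell with CDK4/6i+ATRA. PSMB4 was 262, 265 and 256 CPM in non-treated cells, 267, 258 and 260.1 CPM after ATRA, 318, 300.1 and 293 CPM after CDK4/6i and 341, 366 and 355 CPM after both drugs. ATRA overlapped non-treated cells, CDK4/6i lay above both and CDK4/6i+ATRA lay highest, with a log2 change of 0.44 (SE 0.0382, adjusted p = 7.54e-15), or 0.17 with library size alone. PSMB2 went from 237 to 244 CPM in non-treated cells to 174 to 192 CPM with both drugs, a log2 change of -0.38 (SE 0.0406, adjusted p = 6.54e-12).

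The 19S regulatory particle has a ring of 6 ATPases, PSMC1 to PSMC6, that unfolds the substrate. With CDK4/6i+ATRA 5 of them were lower (40.7% of all genes) and PSMC2 was higher (41.0% of all genes). With DESeq2's size factors, 4 were lower and 1 higher. PSMC3 was 228, 226 and 217 CPM in non-treated cells, 204, 199 and 208 CPM after ATRA, 155, 151 and 159 CPM after CDK4/6i and 137, 137 and 140.0 CPM after both drugs. The groups descended in that order without overlap, and the larger part of the fall was already present with CDK4/6i, at -0.53 on the log2 scale against -0.70 with both drugs (SE 0.0391, adjusted p = 7.12e-22). PSMC2 was 162 to 171 CPM in non-treated cells, 165 to 168 CPM with CDK4/6i, 219 to 234 CPM with ATRA and 219 to 234 CPM with CDK4/6i+ATRA. It rose by 0.45 with ATRA (adjusted p = 6.24e-15) and by 0.43 with both drugs (adjusted p = 5.89e-14), and its interaction was -0.01 (95% interval -0.12 to 0.10), or -0.33 and called under library size alone, beside a median over all genes of -0.34. PSMC1 shares 3654 of its 4522 exonic bases with NRDE2 on the opposite strand, so its level is uncertain.

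Of the 11 non-ATPase subunits of the 19S particle, 1 was higher and 6 were lower with CDK4/6i+ATRA than in non-treated cells (41.0% and 40.7% of all genes), or 1 higher and 10 lower under library size alone. PSMD4, a receptor for ubiquitin chains, was 169.7, 183 and 165 CPM in non-treated cells, 176, 170.4 and 173 CPM with CDK4/6i, 215, 219.8 and 220.2 CPM with ATRA and 282, 281 and 283 CPM with CDK4/6i+ATRA. CDK4/6i overlapped non-treated cells, ATRA lay above both and CDK4/6i+ATRA lay highest, at a log2 change of 0.71 (SE 0.0387, adjusted p = 2.47e-22), or 0.44 with library size alone. PSMD14, the deubiquitinase of the particle, went from 172 to 189.7 CPM in non-treated cells to 124 to 129 CPM with both drugs, a log2 change of -0.51 (SE 0.0411, adjusted p = 8.18e-16). PSMD1, a large scaffold subunit, fell by 0.47 on the log2 scale with CDK4/6i (adjusted p = 1.72e-14), while its change was 0.06 with ATRA and -0.06 with both drugs, neither called. Under library size alone both were called, at 0.10 and -0.33, and with DESeq2's size factors the former was called at 0.09.

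Of the 19S assembly chaperones PSMD9 and PSMD10 were tested, and both were lower with ATRA (35.5% of all genes) and with CDK4/6i+ATRA (40.7% of all genes). PSMD10 was 36.7 to 37.1 CPM in non-treated cells, 30.2 to 32.0 CPM after ATRA, 32.3 to 35.9 CPM after CDK4/6i and 23.7 to 26.3 CPM after both drugs. Its log2 change with both drugs was -0.54 (SE 0.0713, adjusted p = 2.21e-09). PSMD9 was 37.8 to 40.4 CPM in non-treated cells and 29.95 to 33.7 CPM with both drugs, a log2 change of -0.31 (SE 0.0682, adjusted p = 6.28e-05). With both drugs the changes of the 19S chaperones were thus smaller than those of PSMG1 to PSMG4, of which the nearest was -1.21. With ATRA, PSMD9 (-0.36) changed more than PSMG2 (-0.30). These differences between lists were not tested.

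Although the finished core and regulatory particles hold their subunits in fixed numbers, the RNA levels differed between subunits, by an amount that depended on the scaling by length. Per kilobase of exon, the 30 tested subunits of the 20S core and the 19S particle, leaving out the inducible ones, spread with an SD of 1.04 on the log2 scale in non-treated cells, 1.03 after ATRA, 1.10 after CDK4/6i and 1.07 after both drugs. Without the scaling by length the SD was 0.595, 0.654, 0.591 and 0.620 in that order, which is smaller and ranks the groups differently. PSMA7 was highest in non-treated cells at 317 CPM per kilobase and PSMC1, whose level is uncertain, lowest at 16.6. PSMB4 was highest with CDK4/6i+ATRA at 386 CPM per kilobase. On the same scale the inducible PSMB10 moved from rank 25 of the 48 genes in non-treated cells to rank 9 with CDK4/6i+ATRA, and PSMG1 from rank 27 to rank 42.

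CDK4/6i+ATRA was also compared with each drug alone. Against CDK4/6i, 27 of the 43 genes were lower (39.5% of all genes) and 10 higher (39.1% of all genes, with 78.6% called in either direction). Against ATRA, 21 were lower (32.8% of all genes) and 8 higher (36.9% of all genes, with 69.8% called in either direction). The interaction was lower for 13 genes (27.0% of all genes) and higher for 8 (24.5% of all genes, with 51.4% called in either direction), and the highest values were those of PSMD4 (0.36, adjusted p = 1.40e-07) and PSMD1 (0.35, adjusted p = 7.18e-07), which were 0.05 and 0.03 under library size alone and then not called. Under library size alone, 5 were higher and 35 lower against CDK4/6i, 2 higher and 38 lower against ATRA, 6 higher and 35 lower against non-treated cells, and the interaction was higher for 0 and lower for 36. Among all genes called, the share called higher moved at the same time from 49.8% to 36.7%, from 53% to 31.6%, from 50.2% to 40.5% and, for the interaction, from 47.5% to 18.5%.

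Partners of the proteasome were read from lists compiled by function. Among 12 further subunits, assembly factors and bound enzymes, 7 were lower and 4 higher with CDK4/6i+ATRA than in non-treated cells (40.7% and 41.0% of all genes). Under library size alone, 8 were lower and 3 higher. UCHL5, a deubiquitinase bound to the 19S particle, was 185 to 205 CPM in non-treated cells, 122 to 129.7 CPM after ATRA, 165 to 166 CPM after CDK4/6i and 46.5 to 47.3 CPM after both drugs. It fell by 2.07 on the log2 scale with both drugs (SE 0.0478, adjusted p = 4.35e-38), with an interaction of -1.19 (adjusted p = 1.17e-21). ADRM1, its binding site on the particle, and USP14, the other deubiquitinase, fell by 0.56 and 0.65. POMP, the chaperone of the beta ring, moved opposite to the alpha ring chaperones, from 158 to 179 CPM in non-treated cells to 199.9 to 214 CPM with ATRA and 243 to 253 CPM with CDK4/6i+ATRA, a log2 change of 0.56 with both drugs (SE 0.0410, adjusted p = 2.72e-17), or 0.29 with library size alone. AKIRIN2, which brings proteasomes into the nucleus, rose by 1.04, or 0.78 with library size alone. SEM1, a small 19S subunit, had a log2 difference of -0.01, and UBE3C, a bound ubiquitin ligase, one of 0.19, which turned to -0.08 with library size alone.

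NFE2L1, a transcription factor known to raise proteasome genes when proteasomes are inhibited, was 199 to 213 CPM in non-treated cells, 165 to 179.9 CPM after ATRA, 188 to 192 CPM after CDK4/6i and 229.6 to 234 CPM after both drugs. Its log2 change was -0.26 with ATRA and 0.16 with both drugs, the latter -0.10 with library size alone. Of the 7 genes of this control, 4 were higher and 2 lower with CDK4/6i+ATRA (41.0% and 40.7% of all genes), or 3 higher and 4 lower under library size alone, among them the related factor NFE2L2 (1.04), MAFF (4.42), a binding partner of both, and NGLY1 (-1.11), which processes the NFE2L1 protein.

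Of 9 tested regulators of interferon and NF-kB signalling, 8 were higher with ATRA (32.1% of all genes), 5 with CDK4/6i (28.3% of all genes) and 9 with CDK4/6i+ATRA (41.0% of all genes), the last also with library size alone. RELA was the 1 not called with ATRA (-0.09). IRF1 was 9.80 to 12.4 CPM in non-treated cells, 10.4 to 10.7 CPM with CDK4/6i, 71.4 to 79.3 CPM with ATRA and 65.8 to 76.6 CPM with CDK4/6i+ATRA. Its log2 change was 2.79 with ATRA (SE 0.0750, adjusted p = 1.33e-34) and -0.06 with CDK4/6i (95% interval -0.26 to 0.15). IRF7 rose by 3.53 with both drugs from 0 to 0.251 CPM, near the limit of detection, to 1.37 to 1.87 CPM, and RELA, a subunit of NF-kB, rose by 0.51, the smallest change of the 9.

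Of 12 tested genes of MHC class I presentation, 8 were higher and 4 lower with CDK4/6i+ATRA (41.0% and 40.7% of all genes). The highest was TAPBP (1.26), at 1.19 to 1.32 CPM in non-treated cells, and the lowest CALR (-2.47), a chaperone of the endoplasmic reticulum, at 2661 to 2784 CPM in non-treated cells and 479 to 503 CPM with both drugs. Among 14 genes of ubiquitin supply and shuttling, 9 were higher and 2 lower in the same comparison (41.0% and 40.7% of all genes), and with library size alone 6 were higher and 6 lower. The highest was UBQLN2 (1.68), a shuttle factor that carries ubiquitinated proteins to the proteasome.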

How the data were processed

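RNA from 12 HL60 libraries was prepared with the NEBNext Ultra II Directional kit and sequenced on a NovaSeq instrument. The authors trimmed reads with Trimmomatic 0.33, aligned them to hg38 with STAR 2.7.11a and counted them per gene of the NCBI RefSeq annotation. The methods name RSEM for counting, while the layout of the deposited table is that of featureCounts, its counts are whole numbers, and whether strand was used is not stated. The deposited counts per gene are not normalized.

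Here the 48 genes were taken by symbol. Genes were kept by filterByExpr over the 4 groups (13318 of 59251), scaled by TMM and tested with edgeR 4.0.16 (R 4.3.3) by the quasi-likelihood F test in 1 fit of all 12 libraries, with Benjamini-Hochberg adjustment over all genes tested and a threshold of 0.05. The contrasts were 5 pairwise comparisons of groups and the interaction. Standard errors were derived from the F statistic, and intervals are 95%. CPM values used the TMM-scaled library sizes. Length-scaled levels used the summed length of all exons listed on the primary chromosome, which need not be that of the transcript expressed. Ratios of 2 genes added 0.5 to each count. The biological coefficient of variation was 3.70%. The fit was tested on simulated counts. The labels call the libraries biological replicates, and the study describes independent experiments of 1 cell line. Counting limits cover counting error only. Alternatives were DESeq2 1.42.0 (its size factors and its test), library size alone, other filters, a replicate block, only the groups compared and leaving out each library.

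The genes, the partner and marker lists and the tests were chosen with earlier results of these data known. The genes shown per library were the catalytic subunits, activators, PSMF1 and PSMG1 to PSMG4, and, in each other class, the members with the highest and lowest log2 fold change with CDK4/6i+ATRA; PSMD1, PSMC1 and PSMA7 were added after their values were seen. Promoter windows come from RefSeq (GRCh38.p14). Deviations of libraries with the same replicate number correlated at -0.0702 to 0.0328, so the numbers were not taken as pairs.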

Additional observations from a re-analysis of the deposited data

Results flagged for a closer look

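For 21 of the 43 tested proteasome genes the effect of ATRA differed with and without CDK4/6i, by the interaction term of edgeR's fit at an adjusted p under 0.05. Of all genes tested, 51.4% were called in this way, so the share among the proteasome genes (48.8%) was near the background. The interaction was negative for PSMG1 (-1.36), PSMG4 (-1.24), PSMG2 (-0.72), PSMG3 (-0.42), PSMB8 (-0.41), PSMB10 (-0.34), PSME2 (-0.32), PSMA2 (-0.22), PSMD3 (-0.22), PSMA7 (-0.19), PSMA4 (-0.15), PSMD2 (-0.14) and PSMD14 (-0.14). It was positive for PSMD4 (0.36), PSMD1 (0.35), PSMD11 (0.24), PSMD8 (0.24), PSMB4 (0.22), PSME3 (0.21), PSMB5 (0.16) and PSMC5 (0.14). All values are on the log2 scale. With library size alone, none of the 8 positive values was called above 0. With no filter on low counts, fewer genes had a positive interaction, as given below.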

How the results depend on the processing

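Library size alone moved the most results. It called 5 proteasome genes higher and 35 lower against CDK4/6i, 2 higher and 38 lower against ATRA, and 0 higher and 36 lower for the interaction. It changed the sign of 23 of the 144 log2 fold changes of the 24 genes that the naming rule chose, 5 of them called with neither scaling and 18 called with at least 1 of them. The 18 were, for both drugs against no treatment, PSMB6 (-0.15); against CDK4/6i, PSMB8 (-0.23), PSMB6 (-0.14), PSMA1 (-0.0727) and PSMB4 (-0.0563); against ATRA, PSMB6 (-0.18), PSMB7 (-0.18), PSME1 (-0.0259), PSME4 (-0.24), PSMA1 (-0.0472) and PSMD9 (-0.26); and in the interaction PSMB5 (-0.16), PSMB7 (-0.25), PSME3 (-0.11), PSME4 (-0.22), PSMF1 (-0.27), PSMA1 (-0.19) and PSMB4 (-0.10). Among the other genes, the called interactions of PSMC5 (-0.18), PSMD11 (-0.08) and PSMD8 (-0.08) turned as well. The scaling's own shift of all genes is given with the results. With no filter on low counts, 5 genes were higher against ATRA and 2 had a positive interaction, and the cause was not tested. Of the 6 genes higher with ATRA, 3 were listed on 1 chromosome only, a count chosen after seeing the data, as was the spread without length scaling: 0.595 without treatment, 0.654 with ATRA, 0.591 with CDK4/6i and 0.620 with both, a result of the levels being no longer per kilobase.

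With the replicate block, 29 genes in place of 30 were lower with CDK4/6i+ATRA than in non-treated cells and 7 in place of 8 had a positive interaction, where PSMC5 lost its call (0.14, adjusted p = 0.0510). Among the 24 genes, PSMB5 with CDK4/6i+ATRA (-0.10, adjusted p = 0.0525) was the 1 value that lost its call. Leaving out each library, the genes higher with CDK4/6i+ATRA than in non-treated cells numbered 7 to 8 and the genes lower 27 to 33, and no called value of the 24 genes changed sign. DESeq2's size factors and test, the filter at 10 counts and the fit of only the groups compared changed no sign of a value called in either fit. PSMB9 was at or under 3 counts in every library, and the cause was not tested.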
